A study of Mus musculus with 6 samples.

Results

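This account concerns 10 genes of prostaglandin synthesis, breakdown and reception, taken by their names from 55401 genes in a table of RNA sequencing of mouse bone marrow MSCs, the usual short name of mesenchymal stromal cells. They are the cyclooxygenases Ptgs1 and Ptgs2, the prostaglandin E synthases Ptges, Ptges2 and Ptges3, the prostacyclin synthase Ptgis, the prostaglandin D synthase Ptgds, the degrading enzyme Hpgd and the receptors Ptger2 and Ptger4. All 10 were found, and 7 of them reached 1 FPKM (a fragment count scaled for transcript length and library depth) in at least 3 libraries, in fact in all 6. The other 3, Hpgd, Ptgds and Ptger2, stayed under that level.

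The 6 libraries fell into 2 groups of 3. The first group came from Nlrp3 knockout cells (NLRP3-/- in the titles) and the second from wild-type (WT) cells, both from C57/B6J mice, obtained from the femur, cultured and exposed to 3 µg/mL of LPS, the bacterial lipopolysaccharide sensed by TLR4, for 24 h. NLRP3 is the sensor of an inflammasome that activates caspase-1. As both groups carried LPS, the comparison is of the genotypes under LPS and not of a response to LPS, and cells without LPS were not analysed here. The labels used here name neither the animals behind each library nor the kind of Nlrp3 allele, so that p-values cover only the variation among these 6 libraries, possibly a technical one, and a difference between 2 starting cultures cannot be told apart from one of genotype. The titles number the libraries of a group by day, while another label gives all 6 the same day, and the number is used here only as a name.

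Prostaglandins are made from arachidonic acid that phospholipases release from membranes. The cyclooxygenases turn it into an unstable endoperoxide, and separate terminal synthases turn the endoperoxide into the E, D, F and I (prostacyclin) forms and into thromboxane, which act through G protein-coupled receptors on nearby cells before the dehydrogenase encoded by Hpgd inactivates the E form. Ptgs2 and Ptges are known as the pair induced by bacterial products and cytokines, while Ptgs1 is expressed without a stimulus in many cells. In stromal cultures, prostaglandin E is known as a secreted factor that restrains macrophages and T cells through the receptors encoded by Ptger2 and Ptger4.

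The 10 genes lie on 6 chromosomes, and 5 of them, Ptgds, Ptges, Ptges2, Ptgs1 and Ptgis, on chromosome 2. Ptgs1 (ENSMUSG00000047250) spans GRCm38 chromosome 2, positions 36230426 to 36252272, plus strand. Ptges (ENSMUSG00000050737) spans positions 30889471 to 30903297 of the same chromosome, minus strand, and Ptgs2 (ENSMUSG00000032487) spans chromosome 1, positions 150100031 to 150108227, plus strand. Ptger2 (ENSMUSG00000037759) spans chromosome 14, positions 44988195 to 45003820, plus strand, inside the span of the antisense gene Gm17173, which had 0.35 to 0.4 FPKM in knockout libraries and 0.24 to 0.32 FPKM in WT libraries.

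The promoters of both cyclooxygenases and of Ptges are shown because Ptgs1 and Ptges are the genes that passed the test below in opposite directions and because Ptgs2 is the isoenzyme of Ptgs1. Each window holds 250 bases before and 50 bases from the RefSeq start of the gene (build GRCm38.p6), written 5′ to 3′ on the gene's strand. Capitals mark matches to any of 7 motifs searched on both strands.
Ptgs1, chr2:36230176-36230475, plus strand: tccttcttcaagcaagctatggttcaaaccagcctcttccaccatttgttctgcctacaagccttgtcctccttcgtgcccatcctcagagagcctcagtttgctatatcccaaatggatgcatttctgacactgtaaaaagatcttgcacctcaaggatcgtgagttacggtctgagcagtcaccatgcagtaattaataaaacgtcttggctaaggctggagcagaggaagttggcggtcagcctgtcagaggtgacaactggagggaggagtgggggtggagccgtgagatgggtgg
Ptgs2, chr1:150099781-150100080, plus strand: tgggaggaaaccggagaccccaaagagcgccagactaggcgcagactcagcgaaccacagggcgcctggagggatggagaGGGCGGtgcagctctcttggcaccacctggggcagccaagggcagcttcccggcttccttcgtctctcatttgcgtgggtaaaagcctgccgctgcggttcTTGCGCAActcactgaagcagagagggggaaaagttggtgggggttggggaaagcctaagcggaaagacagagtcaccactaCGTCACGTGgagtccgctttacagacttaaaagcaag
Ptges, chr2:30903248-30903547, minus strand: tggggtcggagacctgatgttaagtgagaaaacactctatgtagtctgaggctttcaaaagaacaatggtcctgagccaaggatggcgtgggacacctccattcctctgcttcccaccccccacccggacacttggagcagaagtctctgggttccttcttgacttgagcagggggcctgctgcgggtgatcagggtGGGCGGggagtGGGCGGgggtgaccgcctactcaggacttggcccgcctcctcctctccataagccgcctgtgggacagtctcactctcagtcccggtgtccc

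The Ptgs2 window held a GC box (GGGCGG) starting at base -170, a C/EBP element (TTNNGCAA) at -69, and, downstream of the annotated start, a CRE half-site (TGACG, read here on the other strand) at base 14 whose letters overlap an E box (CACGTG) at base 17. The Ptges window held 2 GC boxes, at -53 and -42. The Ptgs1 window matched none of the motifs. Over 32851 promoter windows of the same length, 35.7% held a GC box, 20.8% a CRE half-site, 10.8% the C/EBP element and 7.15% the E box. No match to a TATA box (TATAAA, 13.6% of all windows), an AP-1 element (TGANTCA, 7.81%) or the NF-kB consensus (8.46%) was found in these 3 windows. These are matches of letters in a short window and were not tested as binding sites.

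The libraries held 53157580 to 66298470 estimated counts, of which about 4 stand for 1 fragment. Nlrp3 had 0 estimated counts in all 3 knockout libraries and 730, 502 and 444 in the WT libraries. Collagen genes were abundant, as Col1a1 averaged 1301 FPKM in knockout and 1726 FPKM in WT libraries and Col1a2 657 and 854 FPKM, and so were macrophage genes: Lyz2 averaged 1145 and Adgre1 134.2 FPKM in knockout libraries, against 462.9 and 44.03 FPKM in WT libraries. The summed FPKM of 26 macrophage markers lay between 1797 and 2050 in knockout libraries and between 778 and 882 in WT libraries, 22 of the 22 tested markers were higher, and none of the 26 was at 0 in all libraries. The summed FPKM of 18 stromal markers lay between 2310 and 2537 in knockout libraries and between 3442 and 3810 in WT libraries, with 12 of 16 tested lower and 3 higher. The platelet chemokines Pf4 (124 FPKM in knockout and 52.1 in WT libraries) and Ppbp (31.5 and 7.59) were higher, whereas the platelet glycoprotein gene Gp9 was at 0 in all 6 libraries. Among granulocyte markers S100a8 was higher (4.497 and 0.783 FPKM) and Camp lower (4.60 and 9.05 FPKM), with Elane, Ngp and Cxcr2 at 0. Among mast cell and basophil markers Mcpt8 was higher (1.79 and 0.783 FPKM) and Gata2 lower (1.58 and 4.39 FPKM), with Mcpt4 and Fcer1a at 0. Of 10 lymphoid markers 6 were at 0 and Trac was higher (3.38 and 0.82 FPKM in knockout and WT libraries), and no endothelial marker passed the filter, with Tek at 0.00667 FPKM in knockout and 0.467 FPKM in WT libraries. With WT means under 1 FPKM, S100a8, Mcpt8 and Trac could meet the filter only with knockout libraries, which favoured a difference. Macrophages express Ptgs1, Ptgs2 and Ptges, and stromal cells do as well. The part that the macrophage and stromal markers have in the differences below was not tested, and in these bulk libraries fewer cells of a type cannot be told apart from less RNA per cell.

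Of the 7 tested prostaglandin genes, Ptges rose, Ptgs1 fell and 5 did not pass, beside 19.6% of all tested genes called in either direction. The test was limma on log2(FPKM + 1) with Benjamini-Hochberg adjustment over 12136 genes and a threshold of 0.05, and log2 differences below are knockout minus WT on that scale, where changes of low genes come out too small. Among all tested genes, 10.4% were called higher and 9.2% lower, so that 1 of 7 in each direction is close to the background. The median log2 difference was 0.19 for the 7 genes and 0.01 for all tested genes. The knockout and WT values did not overlap for 5 of the 7 genes, namely Ptgs1, Ptgs2, Ptges, Ptges2 and Ptges3, and for 36.7% of all tested genes.

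**Figure D1:**
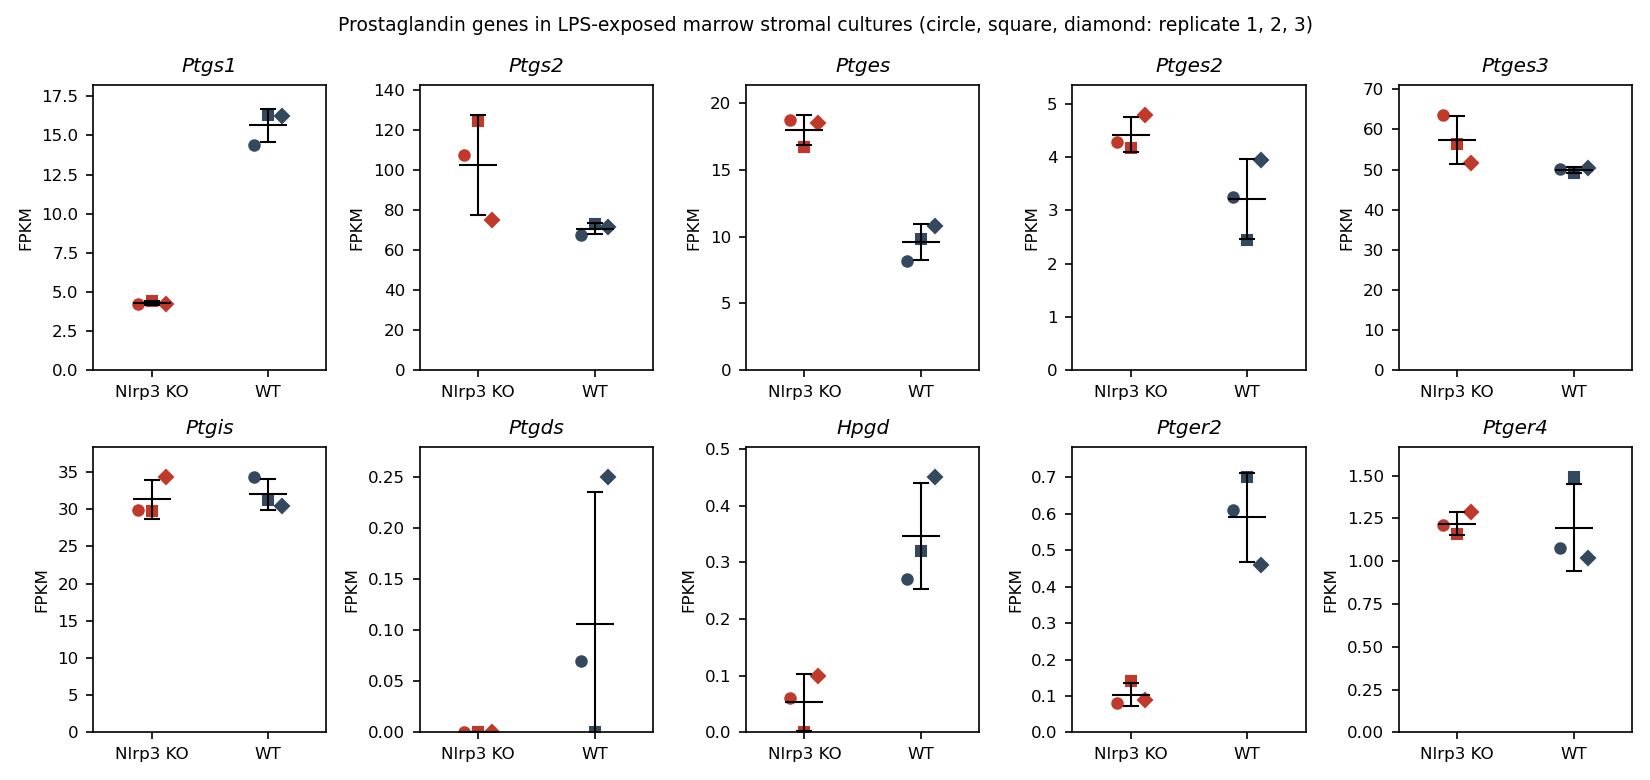
FPKM of the 10 prostaglandin genes in each library, with Nlrp3 knockout left and WT right in every panel; points are libraries, horizontal lines are means and bars are the SD of 3 libraries, cut at 0. Ptgs1, Hpgd and Ptger2 lie lower and Ptges higher in every knockout library, while for Ptgs2 knockout replicate 3 (75.24 FPKM) lies next to the WT libraries.

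The constitutive cyclooxygenase Ptgs1 was lower in the knockout cultures. It had 4.22, 4.45 and 4.21 FPKM in knockout replicates 1, 2 and 3, and 14.42, 16.3 and 16.22 FPKM in WT replicates 1, 2 and 3. The 3 knockout values lay close together and all far under the lowest WT value. The means were 4.29 ± 0.14 FPKM in knockout and 15.6 ± 1.1 FPKM in WT libraries (SD, n = 3 each), so that the knockout mean was 0.274 of the WT mean. The log2 difference was -1.65 ± 0.07 (SE), with a limma adjusted p of 3.14e-05. In edgeR (quasi-likelihood, estimated counts) it was 3.69-fold lower (adjusted p = 2.37e-05).

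The inducible cyclooxygenase Ptgs2 did not pass the test, although every knockout library exceeded every WT library. It had 107.52, 124.42 and 75.24 FPKM in the knockout replicates and 67.65, 72.79 and 71.74 FPKM in the WT replicates. Knockout replicates 1 and 2 stood well above the WT libraries and knockout replicate 3 just above the highest of them, and the SD was 25.0 FPKM in knockout against 2.72 FPKM in WT libraries. The log2 difference was 0.50 with an unadjusted 95% interval of 0.07 to 0.92, and the limma adjusted p was 0.108. The call depended on the test and on a single library: edgeR gave an adjusted p of 0.0751 and DESeq2 one of 0.0197, and without knockout replicate 3 limma gave a log2 difference of 0.70 (adjusted p = 0.00451). With any other library left out, limma did not call Ptgs2 (adjusted p between 0.196 and 0.270). Without knockout replicate 2 its log2 difference was 0.34.

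The balance of the cyclooxygenases was unlike in the genotypes, a description with no test of its own. The FPKM of Ptgs2 was 25.5, 28.0 and 17.9 times that of Ptgs1 in knockout replicates 1, 2 and 3, and 4.69, 4.47 and 4.42 times in the WT replicates. Ptgs1 thus made up 3.45% to 5.30% of the cyclooxygenase FPKM in knockout libraries and 17.6% to 18.4% in WT libraries, and the groups did not overlap. The sum of both genes did overlap, at 79.45 to 128.9 FPKM in knockout libraries and 82.1 to 89.1 FPKM in WT libraries. Ptgs2 was the most abundant of the 10 genes in either genotype.

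The genes whose profile over the 6 libraries was nearest to that of Ptgs2, by the Euclidean distance of centred log2(FPKM + 1) values, were the transcription factor gene Zeb2 (distance 0.0775), the zinc finger gene Zmym5 (0.102) and Actr2 (0.112), which encodes a subunit of an actin-nucleating complex. They were chosen for this likeness, so that high values in knockout replicates 1 and 2 and values near the WT libraries in replicate 3 are a description. Zeb2 had 4.33, 5.42 and 2.64 FPKM in knockout replicates and 2.44, 2.64 and 2.66 FPKM in WT replicates, and Actr2 had 35.67, 37.81 and 24.35 against 22.16, 24.05 and 22.98 FPKM. The phospholipase gene Pla2g4a, chosen after its values were seen, also was high in knockout replicates 1 and 2 only. It encodes the cytosolic phospholipase that releases arachidonic acid for the cyclooxygenases, and had 25.67, 27.14 and 15.18 FPKM in knockout replicates against 13.45, 14.72 and 15.26 FPKM in WT replicates. Its limma adjusted p was 0.117, and 0.00182 without knockout replicate 3, and DESeq2 called it (0.0124) while edgeR did not (0.0751). With any other library left out, the limma adjusted p of Pla2g4a lay between 0.207 and 0.298. The lowest correlation within a genotype, 0.973 over the tested genes, was that of knockout replicates 2 and 3. Knockout replicates 1 and 3 correlated at 0.979 and replicates 1 and 2 at 0.982, while the WT pairs lay between 0.982 and 0.985.

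**Figure D2:**
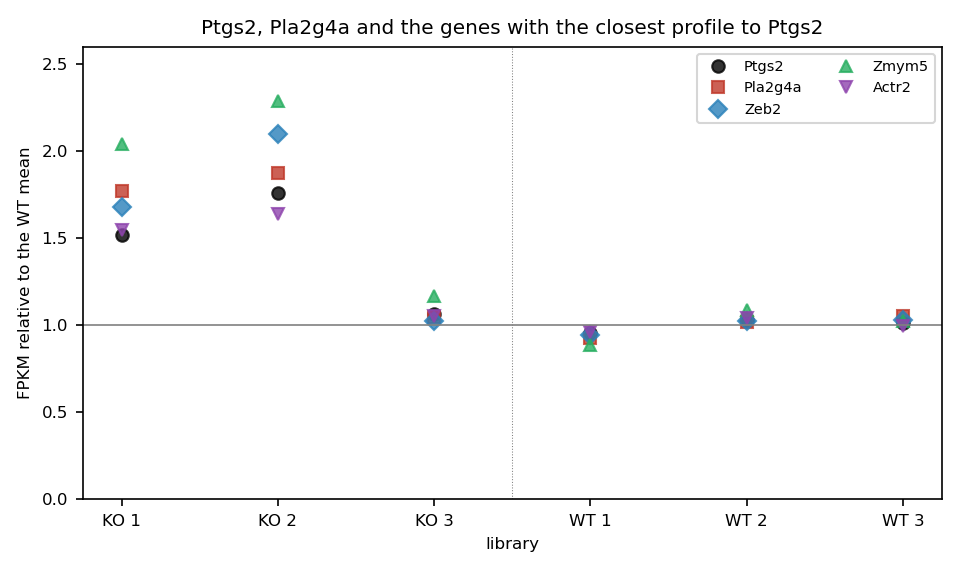
FPKM relative to the WT mean in each of the 6 libraries, knockout left, for Ptgs2, Pla2g4a and the 3 genes nearest to Ptgs2 in profile; each point is 1 library. In knockout replicates 1 and 2 all 5 genes lie between 1.52 and 2.29 times the WT mean, and in knockout replicate 3 between 1.02 and 1.17 times.

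Of the prostaglandin E synthases, the inducible microsomal enzyme Ptges rose. It had 18.71, 16.7 and 18.55 FPKM in knockout replicates and 8.16, 9.81 and 10.83 FPKM in WT replicates. Every knockout value lay well above the highest WT value. The knockout mean was 1.87 times the WT mean, with means of 17.99 ± 1.1 FPKM in knockout and 9.60 ± 1.35 FPKM in WT libraries (SD, n = 3 each). The log2 difference was 0.85 ± 0.11 (SE; limma adjusted p = 0.00218), and edgeR gave 1.85-fold higher (adjusted p = 0.00247).

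The other E synthases did not pass. Ptges2, a membrane-associated enzyme, had 4.29, 4.17 and 4.79 FPKM in knockout replicates and 3.25, 2.45 and 3.94 FPKM in WT replicates (log2 difference 0.38, unadjusted 95% interval 0.04 to 0.71, limma adjusted p = 0.12). Ptges3, a cytosolic enzyme that is also a co-chaperone of Hsp90, had 63.57, 56.48 and 51.69 FPKM in knockout replicates and 50.17, 49.02 and 50.35 FPKM in WT replicates (0.19, interval -0.02 to 0.40, limma adjusted p = 0.192). Both were higher in every knockout library than in every WT library, by narrow margins. The ratio of Ptges to Ptges3 was 0.294, 0.296 and 0.359 in knockout replicates against 0.163, 0.200 and 0.215 in WT replicates, without overlap. The ratio of Ptges to Ptges2 overlapped, at 3.87 to 4.36 in knockout libraries and 2.51 to 4.004 in WT libraries, WT replicate 2 lying level with knockout replicate 2.

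Prostacyclin synthase, Ptgis, was abundant and alike in level. It had 29.87, 29.78 and 34.28 FPKM in knockout replicates and 34.28, 31.19 and 30.46 FPKM in WT replicates. The ranges overlapped and the log2 difference was -0.03, with an unadjusted 95% interval of -0.23 to 0.17 (limma adjusted p = 0.843). The lipocalin-type prostaglandin D synthase Ptgds was at the limit of detection, with 0 estimated counts in each knockout library and 8, 0 and 25 in the WT libraries. A sum of 0 over the knockout group allows up to 3 fragments, counting error alone considered, and most of the 33 WT counts came from WT replicate 3. No test called it (adjusted p = 0.0595 in DESeq2, and without a filter 0.207 in edgeR and 0.414 in limma).

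**Figure D3:**
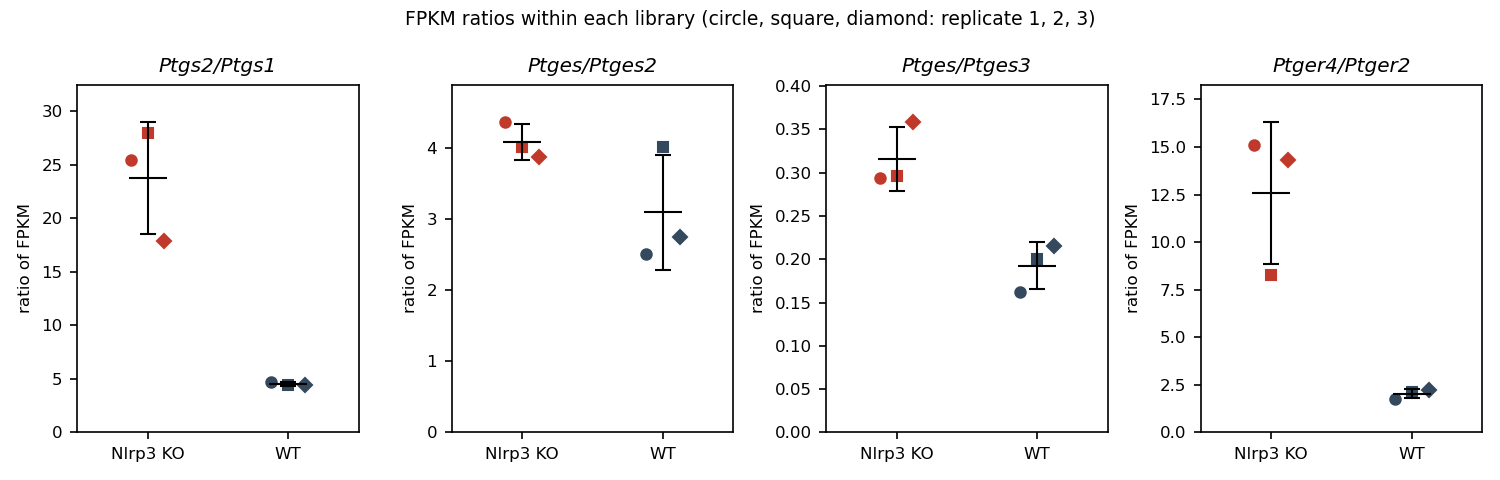
Ratios of FPKM between prostaglandin genes within each library, knockout left and WT right in each panel; points are libraries, horizontal lines are means and bars are the SD of 3 libraries. The Ptgs2 to Ptgs1 ratio lies between 17.9 and 28.0 in knockout and between 4.42 and 4.69 in WT libraries, and the Ptges to Ptges2 panel shows overlapping groups.

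Hpgd, the dehydrogenase that starts the inactivation of prostaglandin E, was detected at very low levels. It had 0.06, 0 and 0.1 FPKM in knockout replicates, from 8, 0 and 12 estimated counts, and 0.27, 0.32 and 0.45 FPKM in WT replicates, from 30, 40 and 46 estimated counts. The groups did not overlap, but the knockout values rest on about 5 fragments in all, against 29 in the WT group. edgeR gave 5.95-fold lower, a log2 difference of -2.57, without a call (adjusted p = 0.116). That difference was -2.0004 without knockout replicate 2 and -3.35 without knockout replicate 3. Hpgd needed its WT libraries to meet the filter of edgeR, which favoured a difference, and missed that filter when the counts were divided by 4. edgeR did not call it without a filter either (0.189), while DESeq2 (adjusted p = 0.0385) and limma on all genes without a filter (0.0222) called it lower.

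The receptors of prostaglandin E differed from each other. Ptger2, which encodes a receptor that raises cAMP, had 0.08, 0.14 and 0.09 FPKM in knockout replicates and 0.61, 0.7 and 0.46 FPKM in WT replicates, from 31, 49 and 33 against 209, 269 and 142 estimated counts. Every knockout library lay far under every WT library, and the group totals were about 28.2 and 155 fragments. Ptger2 was below the filter of the limma test, and edgeR gave 5.53-fold lower (adjusted p = 0.00139), in a test that called 8.12% of 17479 genes lower and 8.48% higher. Among the 9 prostaglandin genes in that test, Ptgs1 and Ptger2 were called lower and Ptges higher.

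Ptger4, which encodes the other cAMP-raising receptor, did not pass. It had 1.21, 1.16 and 1.29 FPKM in knockout replicates and 1.08, 1.49 and 1.02 FPKM in WT replicates, so that the knockout values lay inside the WT range (log2 difference 0.02, unadjusted 95% interval -0.23 to 0.27, limma adjusted p = 0.917). The gene overlaps Ttc33 on the other strand, which had 7.61 FPKM in knockout and 8.31 FPKM in WT libraries, and although the library kit marked the strand, the strand setting of the authors' counting is not known here. The ratio of Ptger4 to Ptger2 was 15.1, 8.29 and 14.3 in knockout replicates and 1.77, 2.13 and 2.22 in WT replicates.

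**Figure D4:**
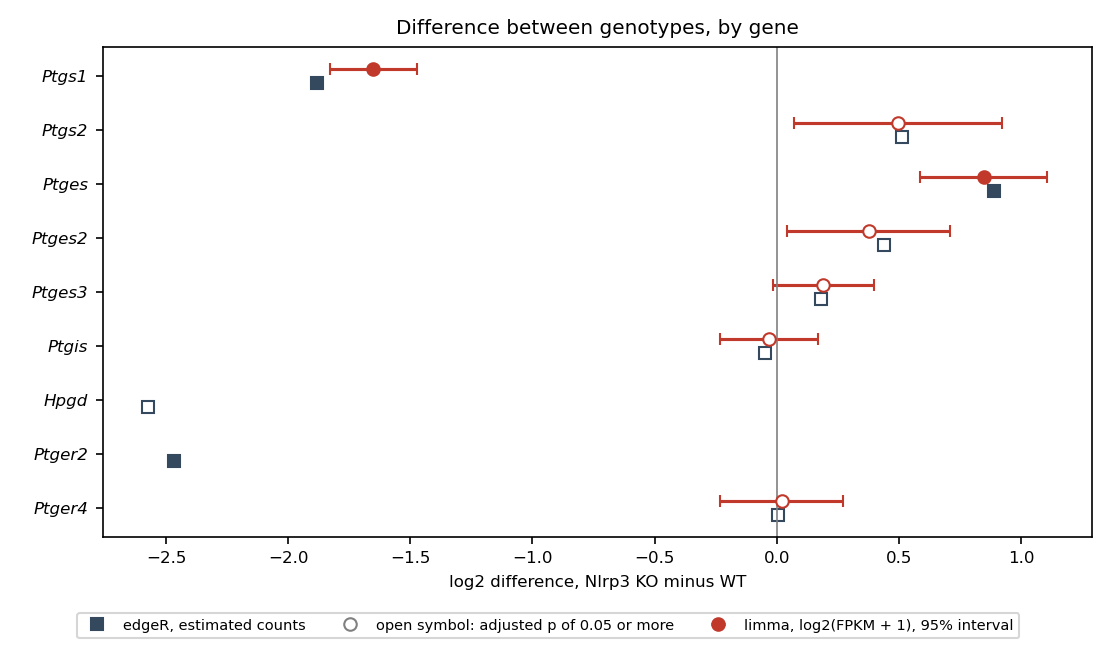
Log2 difference of Nlrp3 knockout minus WT for 9 prostaglandin genes; circles are limma on log2(FPKM + 1) with unadjusted 95% intervals, squares are edgeR on estimated counts, and filled symbols have an adjusted p under 0.05. Ptgs1 and Ptger2 are filled on the left, Ptges is filled on the right, and Hpgd lies far left without a call.

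In order of mean FPKM, Ptgs2, Ptges3 and Ptgis led in both genotypes without overlap of neighbours. In knockout libraries they were followed by Ptges at 17.99, Ptges2 at 4.42 and Ptgs1 at 4.29 FPKM, the last pair overlapping. In WT libraries Ptgs1 at 15.6 FPKM came next, before Ptges at 9.60 and Ptges2 at 3.21 FPKM, with no overlap between neighbours. Ptger4, Ptger2, Hpgd and Ptgds closed the order in both, and the last 3 overlapped with their neighbours in knockout libraries.

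Among the receptors for other prostanoids, Ptgir and Tbxa2r were far lower in the knockout cultures. Of 5 tested genes in a list of 10 receptors, their modulator and nuclear receptors, 3 fell and 1 rose, against 9.2% and 10.4% of all tested genes, a count from which nothing is read about the list, since the filter favoured some of these calls. Ptgir, the receptor for the prostacyclin that Ptgis helps to make, had 0.7, 0.96 and 0.74 FPKM in knockout replicates and 7.01, 6.35 and 6.23 FPKM in WT replicates (log2 difference -2.07, limma adjusted p = 2.94e-05; edgeR 8.17-fold lower). Tbxa2r, the thromboxane receptor, had 0.11, 0.07 and 0.09 FPKM against 1.7, 1.55 and 1.19 FPKM in WT replicates (-1.18, limma adjusted p = 0.000444; edgeR 15.2-fold lower). For both genes every knockout library lay far under the lowest WT value. Both reached the filter only through the WT libraries, so that a tested gene of this kind had to differ.

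Ptgfr, the receptor for the F form and named to complete the count, also fell, with 1.83 ± 0.07 FPKM in knockout and 2.54 ± 0.24 FPKM in WT libraries (-0.32, limma adjusted p = 0.0394). Ptgfrn, which encodes a protein that binds and restrains that receptor, rose to 11.2 ± 0.4 FPKM in knockout libraries, against 9.38 ± 0.34 FPKM in WT libraries (0.24, limma adjusted p = 0.0447). Both calls were lost when any single library was left out. The following 3 were picked with their values known. Of the other E receptors, Ptger1 had 0.45 to 0.69 FPKM in knockout and 0.1 to 0.9 FPKM in WT libraries, and Ptger3 stayed at or below 0.05 FPKM in all 6. The D receptor Ptgdr was at 0 in all 6 libraries. The nuclear receptor gene Pparg, also picked in this way and below the filter, had 1.26, 0.88 and 1.3 FPKM in knockout replicates and 0.38, 0.67 and 0.35 FPKM in WT replicates, and edgeR called it 2.41-fold higher (adjusted p = 0.0311). As given above, summed macrophage markers were higher and summed stromal markers lower in the same knockout libraries, and their part in these differences was not tested.

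**Figure D5:**
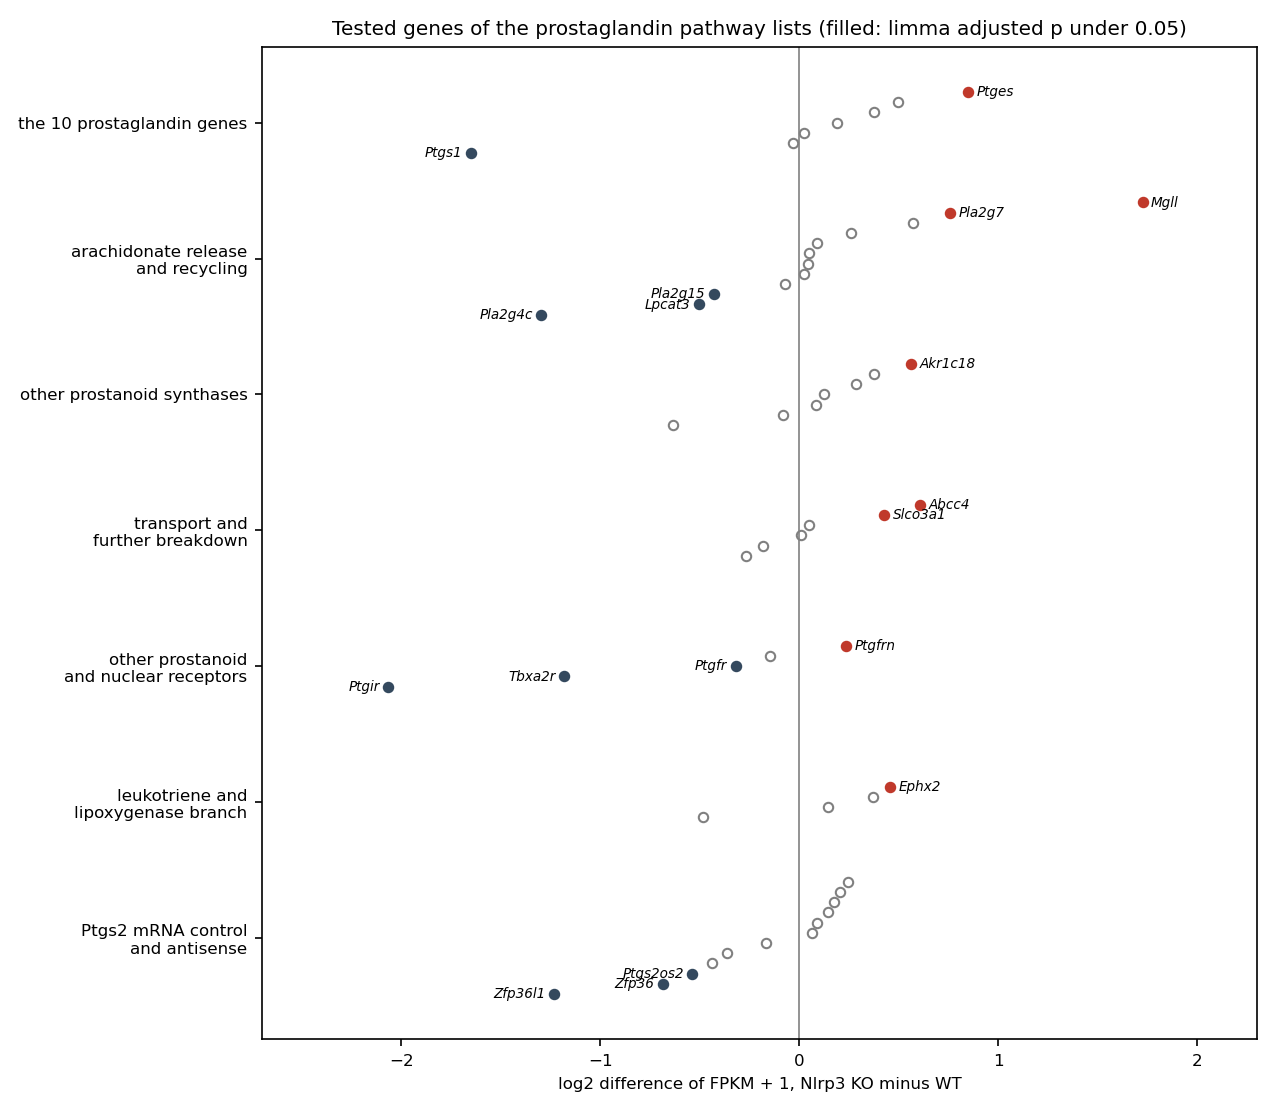
Log2 difference of FPKM + 1, Nlrp3 knockout minus WT, for every tested gene of the 10 prostaglandin genes and of 6 further lists; each point is 1 gene, filled and named where the limma adjusted p was under 0.05 (red higher, blue lower). Ptgir (-2.07) and Ptgs1 (-1.65) lie farthest left and Mgll (1.73) farthest right.

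Genes that release and recycle arachidonic acid moved both ways. Of 12 tested among 19 listed, 2 rose, 3 fell and 7 did not pass, beside 10.4% higher and 9.2% lower among all tested genes. The median log2 difference of the 12 was 0.05. Nothing is read from this count about the list, since the filter favoured the calls of Pla2g4c and Mgll, as given below. Pla2g4c, a cytosolic phospholipase related to Pla2g4a, had 0.23, 0.38 and 0.33 FPKM in knockout replicates and 1.97, 2.11 and 2.62 FPKM in WT replicates (-1.30, limma adjusted p = 0.000343), and it too passed the filter only through the WT libraries. Lpcat3, which returns arachidonic acid to phospholipids, fell to 13.3 ± 1.0 FPKM in knockout libraries, against 19.3 ± 0.2 FPKM in WT libraries (-0.50, limma adjusted p = 0.00324), and the lysosomal phospholipase Pla2g15, named because it completes the count, fell to 15.3 ± 0.5 FPKM against 20.9 ± 0.4 FPKM (-0.43).

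Pla2g7, which hydrolyses platelet-activating factor, rose to 3.41 ± 0.42 FPKM in knockout libraries, against 1.61 ± 0.25 FPKM in WT libraries (0.76, limma adjusted p = 0.00374). Macrophages express Pla2g7, and their markers were higher in these libraries, but the part of the markers in this rise was not tested. Mgll, which releases arachidonic acid from a monoacylglycerol in some tissues, had 1.81, 7.08 and 2.14 FPKM in knockout replicates and 0.1, 0.15 and 0.56 FPKM in WT replicates (1.73, limma adjusted p = 0.0274). It reached the filter only through the knockout libraries, so that it had to differ. Its knockout value was set largely by replicate 2, and the call was lost when any WT library was left out (adjusted p between 0.0582 and 0.0934).

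Of 7 tested genes among 9 other prostanoid synthases, 1 rose and 6 did not pass, beside 10.4% higher among all tested genes. Akr1c18, a hydroxysteroid dehydrogenase that can also make prostaglandin F, had 1.61 ± 0.07 FPKM in knockout and 0.783 ± 0.275 FPKM in WT libraries (0.56, limma adjusted p = 0.0228), and edgeR did not call it (0.0641). The limma call was lost without knockout replicate 1 (0.0854) or 2 (0.0692), without WT replicate 2 (0.0728) or 3 (0.0564), and without the filter (0.0596). Akr1c18 needed its knockout libraries to meet the filter, which favoured a difference. The haematopoietic prostaglandin D synthase Hpgds and the thromboxane synthase Tbxas1, both known from macrophages and other blood cells and both named after their values were seen, were below the filter. Hpgds had 0.35, 0.3 and 0.13 FPKM in knockout and 0.04, 0.03 and 0.09 FPKM in WT replicates, and Tbxas1 had 0.63, 0.78 and 0.67 against 0.4, 0.35 and 0.36 FPKM. edgeR called both higher (adjusted p = 0.0315 and 0.00849). The Hpgds call rests on few fragments, from 159, 128 and 57 against 16, 16 and 37 estimated counts.

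Of 6 genes for transport and further breakdown, all tested, 2 rose and 4 did not pass, beside 10.4% higher among all tested genes. Abcc4, a pump that exports prostaglandins from cells, had 9.95, 10.37 and 9.98 FPKM in knockout replicates and 6.17, 6.8 and 5.9 FPKM in WT replicates (0.61, limma adjusted p = 0.00162). Slco3a1, an organic anion carrier that accepts prostaglandins, rose to 11.2 ± 0.2 FPKM in knockout libraries, against 8.08 ± 0.36 FPKM in WT libraries (0.43, limma adjusted p = 0.00431). The uptake carrier Slco2a1, which takes prostaglandins into cells and was picked with its values known, had 8.5 to 9.49 FPKM in knockout and 8.38 to 8.95 FPKM in WT libraries and did not pass. In the leukotriene and lipoxygenase list 4 of 15 genes were tested, and only Ephx2, the soluble epoxide hydrolase, was called (0.46, limma adjusted p = 0.0351, lost without any library other than knockout replicate 3). Ephx2 also needed knockout libraries to meet the filter, which favoured a difference, and limma without a filter did not call it (adjusted p = 0.091). The 5-lipoxygenase gene Alox5, also picked with its values known, stayed at or below 0.08 FPKM in all 6 libraries. The leukotriene receptor gene Cysltr1 was picked likewise and was below the filter. It had 0.21, 0.28 and 0.24 FPKM in knockout replicates and 0.1, 0.08 and 0.02 FPKM in WT replicates. edgeR called it 3.52-fold higher (adjusted p = 0.0433). That call too rests on few fragments, from 76, 93 and 83 against 34, 29 and 8 estimated counts.

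The last list held genes that act on Ptgs2 transcription or on the stability of its mRNA, and its noncoding neighbours. Of 12 tested among 14, none rose and 3 fell, beside 10.4% higher and 9.2% lower among all tested genes. Celf2, which encodes an RNA-binding protein and was picked with its values known, was below the filter, with 0.41, 0.57 and 0.32 FPKM in knockout replicates and 1.15, 1.31 and 0.86 FPKM in WT replicates, and edgeR called it 2.6-fold lower (adjusted p = 0.00593). The longest coding transcript of Ptgs2 in GENCODE M21 holds 15 copies of ATTTA, the core of AU-rich decay elements, in 4453 bases, or 3.37 per kilobase, a density above that of 98.3% of the tested genes with a coding transcript. Such a density was not particular to Ptgs2, as Ptges3 had 3.0 per kilobase (above 96.9% of those genes) and Hpgd 2.38 (above 92.3%). Copies were counted over the whole transcript, and a role of them in decay was not tested. Ptges holds 0 copies in 3647 bases and Ptgs1 3 copies in 2867 bases. Zfp36l1 and Zfp36, whose proteins bind such elements and promote decay, had the lowest log2 differences among the 12 genes in the limma test. Zfp36l1 had 25.18, 29.8 and 26.16 FPKM in knockout replicates and 65.55, 68.89 and 60.37 FPKM in WT replicates (-1.23, limma adjusted p = 2e-04). Zfp36 had 12.33, 11.24 and 15.58 FPKM in knockout replicates and 20.8, 22.91 and 20.58 FPKM in WT replicates (-0.69, limma adjusted p = 0.00889). The stabilizing factor Elavl1 did not pass (7.53 to 8.68 FPKM in knockout and 6.66 to 6.96 FPKM in WT libraries). The noncoding neighbour Ptgs2os2 fell to 5.73 ± 0.88 FPKM in knockout libraries, against 8.71 ± 0.48 FPKM in WT libraries (-0.54, limma adjusted p = 0.0173, and 0.0627 and 0.0706 without WT replicate 2 and 3), while Ptgs2 itself was not called. Elavl1, Ptgs2os2 and the factors named next were picked with their values known. Of the transcription factors in the list, Cebpb, Cebpd, Nfkb1, Rela, Egr1, Jun, Fos and Creb1 did not pass.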

How the data were processed

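Polyadenylated RNA of 6 libraries was measured, 3 of Nlrp3 knockout and 3 of WT cells. Tools named in the submitters' processing notes are StringTie 1.3.4d, HISAT2 2.0.4 and cutadapt 1.9, and the build is GRCm38. Neither the annotation release nor the counting step and its strand setting is given in the sources used here. Per the file headers, the authors deposited FPKM values and estimated counts for 55401 genes; the counts are whole numbers of which about 4 stand for 1 fragment, an inference from the values.

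Genes with at least 1 FPKM in at least 3 of 6 libraries (12136) entered the main test, limma 3.58.1 (R 4.3.3) on log2(FPKM + 1) (trend, group only, two-sided, Benjamini-Hochberg, threshold 0.05). edgeR 4.0.16 (quasi-likelihood, TMM, filterByExpr) and DESeq2 1.42.0 on the estimated counts were alternatives, and edgeR serves for genes under the FPKM filter. The scripts were tested on simulated data. Counts set the precision: the floor of 3 fragments covers counting error only. The members and lists were chosen with earlier results of these data known. All 174 listed genes (10 members, 6 pathway and 7 marker lists) were matched by symbol. Named besides the members are Nlrp3, the 3 profiles nearest to Ptgs2 and, in each pathway list, at most 2 called genes with the highest and 2 with the lowest log2 difference. Also named are at most 2 of the most abundant markers of each list and some of the genes overlapping a member. Other named genes are said to be chosen later. Promoters are from RefSeq (GRCm38.p6) and transcripts from GENCODE M21, in which 8 of 10 members have the start and end of the deposited table.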

Additional observations from a re-analysis of the deposited data

How the results depend on the processing

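The calls of Ptgs1 (lower) and Ptges (higher) held under each alternative run, namely a pseudocount of 0.1, no filter, median centring, quantile normalization, edgeR, DESeq2, the replicate block and each library left out, with limma adjusted p up to 0.000568 and 0.0144 when a library was left out. Ptger2 stayed called in edgeR without any single library (adjusted p up to 0.00988). The number of prostaglandin genes called higher was 2 in DESeq2, through Ptgs2, and between 1 and 2 with a library left out. The number called lower was 2 in edgeR with and without its filter and with counts divided by 4 (chosen after seeing the data), and 3 in DESeq2 and in limma without a filter, where Ptger2 and Hpgd were called too; limma without a filter tested both, which its filter had kept out, while the cause of the DESeq2 call of Hpgd, not made by edgeR, was not tested. With a library left out the number was 1. Over all tested genes, DESeq2 called 1820 higher and 1685 lower among 20940 genes with an adjusted p, and limma 1264 and 1117 among 12136. The shares called in either direction were 16.7% in DESeq2 and 19.6% in limma. Without a filter, limma called 1197 of 26722 genes lower and edgeR 1129 of 26876. With counts divided by 4, edgeR called 1461 of 14500 lower. With a library left out, limma called 705 to 1464 higher, against 1264, and 583 to 1281 lower. The causes of these differences in number were not tested. The replicate block, the number in the titles, left 1106 higher and 980 lower. The deviations of equal numbers correlated at 0.02, 0.17 and 0.10, and those of unequal numbers at -0.17 to 0.08. These few values do not settle whether equal numbers belong together. The numbers were not taken as a pairing because the labels do not name the animals. Under the block Ptgs1 had an adjusted p of 0.00137 and Ptges one of 0.0118, while Mgll, Ptgfr, Ptgfrn, Ephx2 and Ptgs2os2 lost their calls. Ptgfrn was also lost under median centring and Akr1c18 in edgeR. Pla2g4c, Ptgir and Tbxa2r gave no value with a WT library left out, nor Mgll with a knockout library left out, because they then missed the FPKM filter. Hpgd (about 5 knockout fragments) and Ptgds are limited by depth.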
